A study of Rattus norvegicus with 28 samples.

Results

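The transcripts of the mitochondrial genome were examined in the prefrontal cortex of rats given psilocybin, ketanserin or both. The members are all rows of the deposited count table that lie on the mitochondrial chromosome, and there were 37 of 36387 rows in all. By the table's gene types, 13 were protein-coding, 2 were rRNA rows and 22 were tRNA rows. A filter on low counts, applied to the whole table, left 24 of the 37, namely all 13 protein-coding rows, both rRNA rows and 9 tRNA rows. Coordinates are those of rn6. The animals were adult male Sprague-Dawley rats, an outbred stock, aged 8 weeks on arrival. Each animal had an intraperitoneal injection of ketanserin or its 5% Tween-80 vehicle, then one of psilocybin or saline, and prefrontal cortex was collected after 24 h. There are 28 libraries in 7 groups, with 4 biological replicates in each. The vehicle group received both vehicles, 2 groups received psilocybin alone at 1 or 3 mg/kg, 2 received ketanserin alone at 1 or 3 mg/kg, and 2 received both, each drug at 1 mg/kg or each at 3 mg/kg (the combination). Psilocybin is the precursor of psilocin, which activates serotonin receptors, and ketanserin blocks the serotonin receptor held to carry the psychedelic effect. Replicate numbers here only name libraries, because the labels number none.

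The mitochondrial genome is a small circle of DNA that codes for core subunits of respiratory complexes I, III and IV and of ATP synthase, and for the rRNAs and tRNAs with which mitochondria translate them. Complex II and all other subunits come from nuclear genes. Both strands are transcribed as long precursors, the tRNAs that lie between the mRNAs are cut out, and most of the released mRNAs receive a short poly-A tail. Nd6 is the mRNA that lies on the strand opposite to the others. Cortical neurons draw much of their energy from oxidative phosphorylation, and their mitochondrial transcripts are abundant.

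Libraries held 12783067 to 18538414 counts, of which 902348 to 1818962 were in mitochondrial rows. Summed markers of cortical excitatory neurons were at 3123 to 4247 CPM (counts relative to library size, scaled between libraries), against 14.2 to 28.1 for 3 striatal markers and 0 to 15.9 for 3 choroid plexus markers. The 5 oligodendrocyte markers summed to 2162 to 8098 CPM, with group means from 0.359 ± 0.155% of nuclear counts after 3 mg/kg psilocybin to 0.612 ± 0.254% after 1 mg/kg psilocybin (SD, n = 4), and their part in the results below was not tested beyond a correlation. Of 30 tested marker rows of all cell types, edgeR called 0 in each of the 15 comparisons, with 0 to 5 at an unadjusted p under 0.05 (1.3 to 5.74% of all rows), and DESeq2 called 1, Nefl, between the doses of psilocybin. One library stood apart. In replicate 4 of the 3 mg/kg combination 19602 rows had 0 counts (15344 to 16657 in the other 27), and 4.46% of its counts lay in transcripts with no gene name (at most 2.53% elsewhere). Of its mitochondrial mRNA counts, 33.1% belonged to complex I, where the other 27 libraries reached at most 25.9%. Among the 15 mRNA and rRNA rows it had the highest level of all libraries for 3 and the lowest for 5. For comparisons of its group the counts of members above and below 0 and the named members are also given without it, apart from sums of Mt-nd4 with a further row. For all comparisons the counts are also given as the range with 1 library of the compared groups left out at a time.

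Mt-co1 had the most counts of any row in the table, and 9 of the 10 highest mean counts, ranks 1 to 9, were mitochondrial. Levels between rows are compared here as CPM per kilobase of row, with the mean ± SD over all 28 libraries. The 3 complex IV mRNAs, which code for the catalytic core of cytochrome c oxidase, were among the 4 highest: Mt-co1 (ENSRNOG00000034234, MT 5323 to 6867) at 14174 ± 2048, Mt-cox3 (ENSRNOG00000030700, MT 8599 to 9382) at 12780.2 ± 2891 and Mt-co2 (ENSRNOG00000030371, MT 7006 to 7689) at 11244 ± 2226 CPM per kb. Mt-atp6 (ENSRNOG00000031979, MT 7919 to 8599), a proton channel subunit of ATP synthase, led the order at 16316 ± 3485 CPM per kb. Mt-atp8 (ENSRNOG00000033299, MT 7758 to 7961), the other ATP synthase subunit, stood at 1044 ± 249.8 CPM per kb. It is 204 bases long and shares 43 bases and a joint message with Mt-atp6. How reads that reach both rows were assigned is not given, so their levels do not compare directly. Mt-cytb (ENSRNOG00000031766, MT 14136 to 15278), the cytochrome b of complex III, followed at 7869.6 ± 1147 CPM per kb. Neighbours among Mt-atp6, Mt-co1, Mt-cox3 and Mt-co2 differed by less than the larger of their SDs, while Mt-cytb lay more than 1 SD below Mt-co2. All rows were measured in the same libraries, and these SDs are between libraries. They do not settle the order of rows within a library, which was not tested.

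The 7 complex I mRNAs, which code for the membrane arm of NADH dehydrogenase, spread widely. Mt-nd1 (ENSRNOG00000030644, MT 2740 to 3694) and Mt-nd2 (ENSRNOG00000031033, MT 3904 to 4942) were highest at 6965 ± 1467 and 6369.6 ± 1303 CPM per kb, a gap smaller than either SD between libraries. Mt-nd3 (ENSRNOG00000033615, MT 9451 to 9798) stood at 3240.2 ± 979, Mt-nd6 (ENSRNOG00000029042, MT 13543 to 14061, minus strand) at 2754 ± 577 and Mt-nd4l (ENSRNOG00000031053, MT 9870 to 10166) at 2624 ± 494 CPM per kb, with each less than 1 SD from the next. Mt-nd5 (ENSRNOG00000029971, MT 11736 to 13565) had 1425 ± 282 CPM per kb. Mt-nd4 (ENSRNOG00000029707, MT 10160 to 11537) was the lowest of all 13 mRNAs at 435 ± 139.6 CPM per kb. A row outside the mitochondrial genome that is described as the same subunit also held counts, as given below. Mt-nd4 overlaps Mt-nd4l by 7 bases and is carried on the same mature message. It also had the highest coefficient of variation between libraries among the mRNAs, at 32.1%. Mt-nd3 was close at 30.2%, and its highest library was 4.40 times its lowest, against 3.77 times for Mt-nd4. The ratio for Mt-nd3 rests on the library that stood apart, replicate 4 of the 3 mg/kg combination, at 458 CPM. Its next lowest library was at 759 CPM and its highest at 2014 CPM. Mt-co1 at 14.5% and Mt-cytb at 14.6% varied least. Mt-nd5 and Mt-nd6 overlap by 23 bases on opposite strands. The sources used here do not give how reads in such overlaps were assigned.

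The libraries were made from poly-A RNA, and the rRNA and tRNA rows report what such libraries captured. The shorter rRNA row (ENSRNOG00000030478, MT 68 to 1025, 958 bases) stood at 4655 ± 1136 CPM per kb and the longer (ENSRNOG00000043866, MT 1094 to 2664, 1571 bases) at 3245 ± 664 CPM per kb, close to Mt-nd3. Together they held 10.7% of all mitochondrial counts, where the 12 mRNAs of the plus strand held 87.7% and Mt-nd6 1.59%. The 22 tRNA rows, 60 to 75 bases long, held far fewer. The 8 tRNA rows of the minus strand took 0.0686% of mitochondrial counts and the 14 of the plus strand 0.00504%. The 5 highest tRNA rows were all on the minus strand, led by the one at MT 15348 to 15415 (ENSRNOG00000029145), with 271 to 825 counts per library, and the one at MT 5081 to 5152 (ENSRNOG00000032609), with 134 to 435. The other tested rows of the minus strand lay at MT 5185 to 5252 (ENSRNOG00000031333), 5256 to 5321 (ENSRNOG00000029954) and 14062 to 14130 (ENSRNOG00000032997), with 53.4 ± 24.3, 54.4 ± 17.8 and 43.2 ± 15.2 CPM per kb. The 4 tested rows of the plus strand lay at MT 9800 to 9867 (ENSRNOG00000032320), 7693 to 7756 (ENSRNOG00000029070), 2665 to 2739 (ENSRNOG00000032112) and 3835 to 3903 (ENSRNOG00000032274), with 21.8 ± 9.33, 15.6 ± 7.80, 14.2 ± 6.28 and 7.25 ± 4.68 CPM per kb. The 13 tRNA rows that did not pass the filter had mean levels of at most 0.191 CPM. Among them, 1 row (ENSRNOG00000031780, MT 1 to 67) had 0 counts in all 28 libraries, which allows up to 0.00701 CPM over the summed libraries (3 counts, counting error only). The table names the tRNA and rRNA rows by clone, so they are identified here by position.

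**Figure D1:**
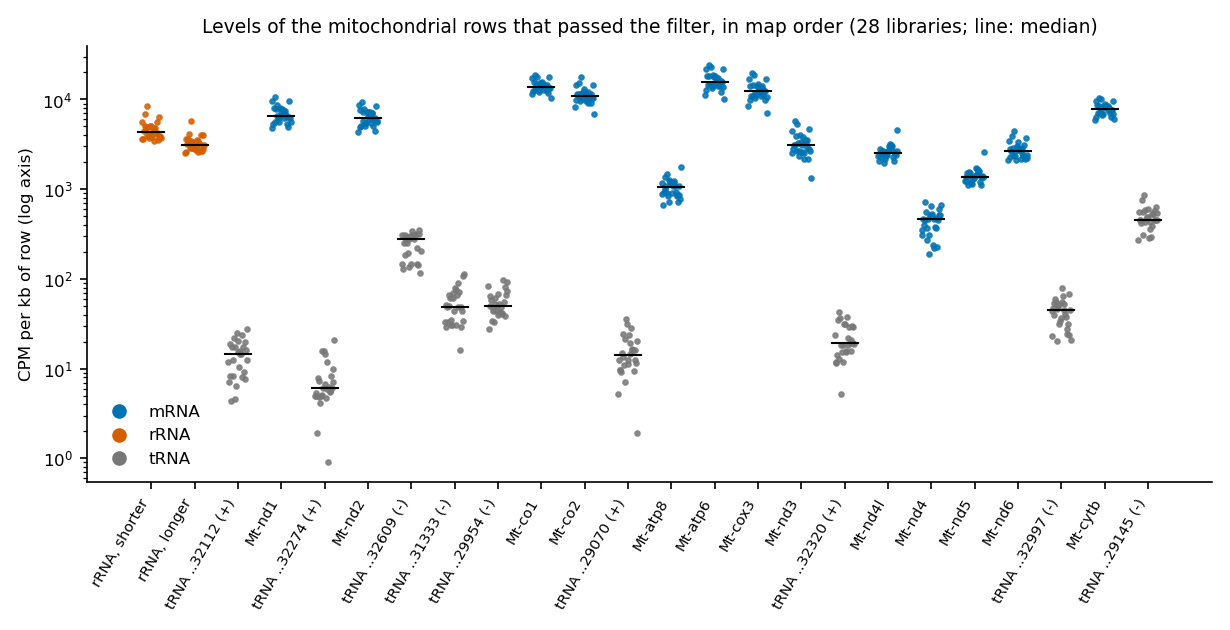
Levels of the 24 mitochondrial rows that passed the filter, in map order, as CPM per kilobase on a log axis; each point is 1 of 28 libraries (a library at 0 is not drawn), the line is the median over all 28, and the sign after a tRNA row is its strand. Mt-atp6, Mt-co1, Mt-cox3 and Mt-co2 stand highest, Mt-nd4 is the lowest mRNA, and the tRNA rows of the minus strand lie above those of the plus strand.

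Set beside nuclear partners of the same complexes, on the scale of median CPM per kb, the mitochondrial rows were higher throughout. The 7 complex I members ranged from 462 to 6586 and 10 nuclear complex I genes from 59.7 to 322 CPM per kb. For complex III, Mt-cytb stood at 7840.4 and 6 nuclear genes at 34.9 to 205 CPM per kb. The 3 complex IV mRNAs ranged from 10879.8 to 13834, against 9.26 to 1020.0 CPM per kb for 10 nuclear gene records. For ATP synthase, Mt-atp8 and Mt-atp6 were at 1045 and 15672 and the highest of 9 nuclear records at 906 CPM per kb.

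Across the 7 groups the spread within a group was mostly larger than the gaps between group means. The lowest and highest group means of each row are given here as CPM ± SD (n = 4). For complex IV, Mt-co1 went from 20359 ± 1781 (the 1 mg/kg combination) to 23410.5 ± 1052 (1 mg/kg ketanserin), Mt-co2 from 7159 ± 2099 (the 3 mg/kg combination) to 8518 ± 2468 (3 mg/kg psilocybin) and Mt-cox3 from 9181 ± 1159 (the 1 mg/kg combination) to 11017 ± 3186 (1 mg/kg psilocybin). Mt-cytb of complex III went from 8345 ± 783 (the 1 mg/kg combination) to 9658 ± 302 (1 mg/kg ketanserin), against 8711 ± 1949 in vehicle. The mean of Mt-co2 in the 3 mg/kg combination was 7987 ± 1581 (n = 3) without its replicate 4, at 4676, and that after 3 mg/kg psilocybin 7297 ± 440.1 without its replicate 1, at 12179.9, and neither group was then the extreme one. For each of these 4 mRNAs the gap between the lowest and highest mean was smaller than the largest SD within a group. For ATP synthase, Mt-atp6 went from 9932 ± 1294 (the 1 mg/kg combination) to 12192 ± 3007 (1 mg/kg psilocybin) and Mt-atp8 from 171 ± 16.98 (the 1 mg/kg combination) to 233 ± 14.2 (3 mg/kg ketanserin). The 1 mg/kg combination had the lowest mean for Mt-co1, Mt-cox3, Mt-cytb, Mt-atp6, Mt-atp8, Mt-nd1, Mt-nd2 and Mt-nd6.

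The complex I mRNAs did not share an order of groups. Mt-nd1 went from 5592 ± 797 (the 1 mg/kg combination) to 7288 ± 2125 (1 mg/kg psilocybin) and Mt-nd2 from 5786 ± 1168 (the 1 mg/kg combination) to 7116 ± 1998 (1 mg/kg psilocybin). Mt-nd3 went from 1001 ± 484 (the 3 mg/kg combination) to 1342 ± 481 (1 mg/kg psilocybin), and Mt-nd6 from 1312 ± 214 (the 1 mg/kg combination) to 1544 ± 134 (1 mg/kg ketanserin). Mt-nd4l went from 659 ± 58.5 (3 mg/kg psilocybin) to 907 ± 299.9 (the 3 mg/kg combination) and Mt-nd5 from 2215 ± 116 (3 mg/kg psilocybin) to 3069 ± 1096 (the 3 mg/kg combination), with both extremes in the 3 mg/kg groups that received psilocybin and with the largest SD in the combination, where replicate 4 was the highest library. Without it the means there were 757 ± 37.9 and 2521 ± 29.6 (n = 3), no longer the highest. Mt-nd3 in the 3 mg/kg combination had a mean of 1182 ± 393 (n = 3) without its replicate 4, at 458, and that group was then no longer the lowest. Both rRNA rows had their lowest mean in vehicle and their highest after 3 mg/kg psilocybin. The shorter went from 4157 ± 886 (vehicle) to 5057 ± 2101 (3 mg/kg psilocybin) and the longer from 4687 ± 812 (vehicle) to 5889 ± 2124 (3 mg/kg psilocybin). Replicate 1 after 3 mg/kg psilocybin was high for both, and without it their means in that group were 4037 ± 614 and 4849 ± 522 (n = 3), for the shorter row below vehicle. Among the 15 mRNA and rRNA rows, leaving out 1 library of the group with the lowest mean moved that place to another group for 9, and of the group with the highest mean for 13.

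The summed mitochondrial rows made up 6.98 to 11.6% of a library's counts, with a mean of 8.89%. The 4 vehicle libraries had 6.98, 7.74, 9.71 and 10.3%, and no group stood outside that range as a whole. The groups given psilocybin alone had 8.03, 8.39, 9.50 and 11.6% at 1 mg/kg and 7.84, 7.90, 8.52 and 11.1% at 3 mg/kg. After ketanserin alone the shares were 8.63, 9.39, 9.53 and 9.59% at 1 mg/kg and 7.96, 8.95, 9.30 and 9.49% at 3 mg/kg, and after the combination 7.46, 8.23, 8.91 and 9.09% and 7.06, 8.23, 8.56 and 10.8%. The vehicle libraries alone spread over most of the range, at 8.69 ± 1.59% (mean ± SD, n = 4). The groups given ketanserin alone had the smallest SDs, with 9.29 ± 0.443% and 8.93 ± 0.680%. The 1 mg/kg combination was close at 8.42 ± 0.741%, while the 3 mg/kg combination had 8.68 ± 1.59%. Differences in spread were not tested. The lowest exact permutation p of 10 comparisons was for the 1 mg/kg combination against ketanserin alone at that dose (8.42 ± 0.741 against 9.29 ± 0.443%, difference -0.866, SE 0.432, exact permutation p = 0.0857, adjusted p = 0.508, two-sided, adjusted over 40 tests). With 4 libraries a group the exact permutation test has 70 regroupings and cannot go below p = 0.0286. The 3 mg/kg combination differed from vehicle by -0.0174 percentage points, and by 0.521 without its replicate 4. In bulk cortex, fewer cells of a type and less RNA per cell cannot be told apart.

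The makeup of the mitochondrial counts was compared by 3 further shares, which do not depend on the scaling of the libraries. Of the 40 tests on the 4 shares, 0 passed after adjustment (lowest adjusted p = 0.508) and 1 had an unadjusted exact p under 0.05. This was the tRNA share after the 3 mg/kg combination, where libraries had 0.0762, 0.0781, 0.0787 and 0.0970% of mitochondrial counts in tRNA rows against 0.0623, 0.0648, 0.0650 and 0.0724% in vehicle (difference 0.0164, SE 0.00532, exact permutation p = 0.0286, adjusted p = 0.508). The 4 values of the combination lay above the 4 of vehicle, and its highest value was replicate 4, the library that stood apart. Without that library the difference was 0.0115 (SE 0.00231, exact permutation p = 0.0571). The mean tRNA share of the other 5 treated groups was also above the vehicle mean of 0.0661 ± 0.00436%, from 0.0720 ± 0.00317% after 1 mg/kg psilocybin to 0.0759 ± 0.00903% after 3 mg/kg psilocybin, and each of these 5 groups overlapped vehicle. All 6 comparisons use the same vehicle libraries.

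The rRNA share was 9.59, 9.87, 10.3 and 11.1% of mitochondrial counts in vehicle and 10.6, 10.8, 12.1 and 13.97% after 3 mg/kg psilocybin (difference 1.65, SE 0.847, exact permutation p = 0.114, adjusted p = 0.508), and the groups overlapped. After the 1 mg/kg combination it was 11.2 ± 1.45% against 9.66 ± 0.872% after 1 mg/kg ketanserin (difference 1.59, SE 0.845, exact permutation p = 0.114, adjusted p = 0.508). Nd6 took 1.55 to 2.17% of the mitochondrial mRNA counts of a library. Its share was 1.76 ± 0.0775% in vehicle and between 1.70 ± 0.0794% (3 mg/kg ketanserin) and 1.86 ± 0.239% (3 mg/kg psilocybin) in the treated groups, and each treated group overlapped vehicle.

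**Figure D2:**
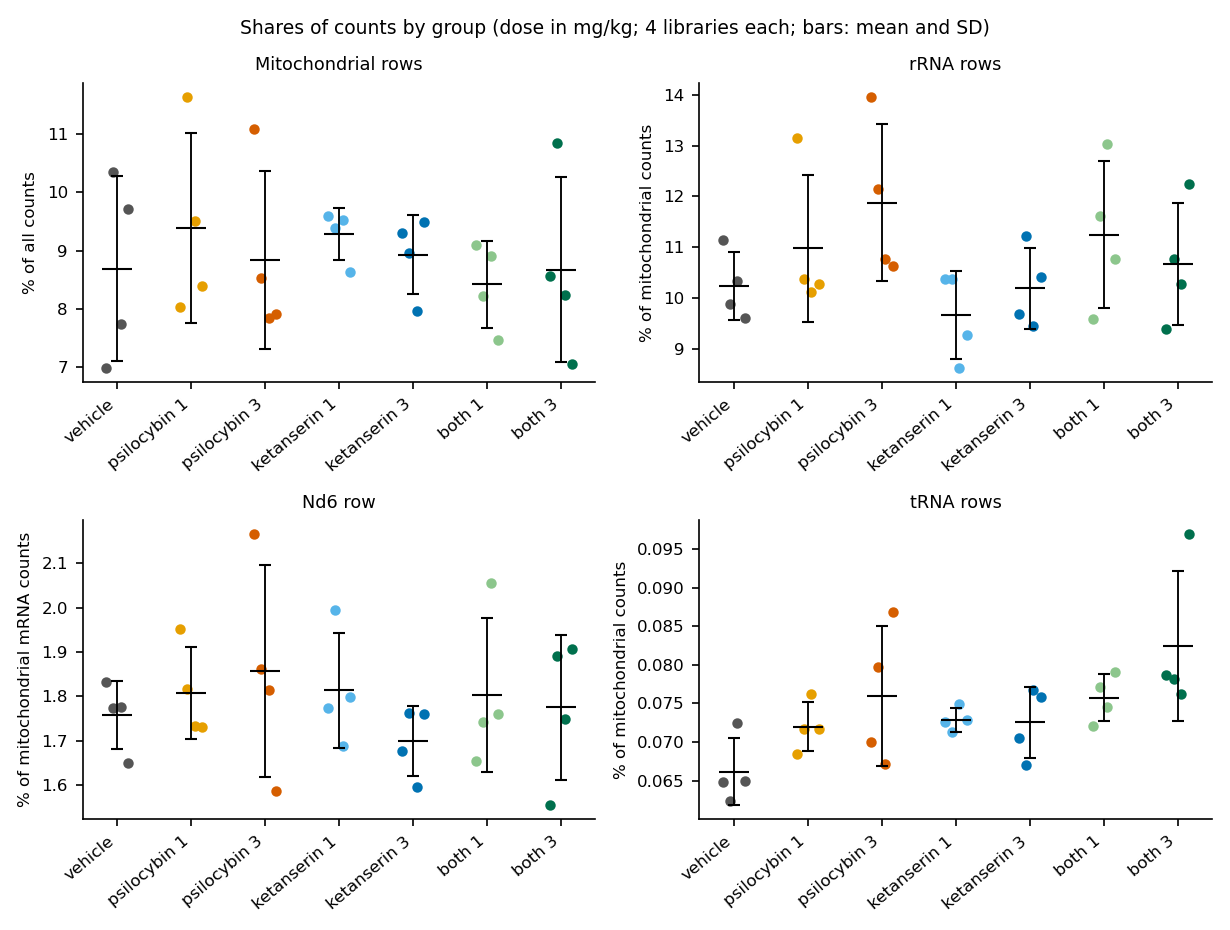
Shares of counts by group, in 4 panels, in percent, with 1 point per library (4 per group) and the mean and SD as bars; doses are in mg/kg. The mitochondrial, rRNA and Nd6 shares overlap between vehicle and each treated group, and the tRNA share after the 3 mg/kg combination lies above the 4 vehicle libraries.

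Mt-nd4, the mRNA of a core proton-pumping subunit of complex I, had the highest coefficient of variation of the mRNAs. Its level went with that of a row outside the mitochondrial genome. An assembled transcript with no gene name on chromosome 20 (rn6, 19484399 to 19485845, plus strand) is described in the table as NADH-ubiquinone oxidoreductase chain 4, the product of Mt-nd4. It had 563 to 17771 counts, where Mt-nd4 had 3768 to 14343. If the sequences of these rows are alike, reads can be divided between them, so the level of each is uncertain. No sequence of either row was used here, and the sources used here do not give how the counting treated reads that match both.

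The chromosome 20 transcript fell into separate ranges, with at most 1488 counts in 13 libraries and at least 4219 in the other 15. In the 13 libraries where it was low, Mt-nd4 was at 629 to 984 CPM and held 86.6 to 95.5% of the counts of both rows. In the 15 where it was high, Mt-nd4 was at 261 to 716 CPM and held 21.5 to 69.03%. Within those 15 libraries log2 CPM of the rows moved in opposite directions (Pearson r = -0.81, permutation p = 0.000350, adjusted over 2 p = 0.000700; Spearman rho = -0.79, permutation p = 0.000860), and without the 2 libraries farthest from the median r was -0.88. Within the 13 low libraries r was 0.25 (permutation p = 0.396; rho = 0.10). The coefficient of variation over 28 libraries was 32.1% for Mt-nd4, 95.9% for the transcript and 24.99% for their sum. This relation was looked for after the data were seen.

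The groups did not hold the same number of libraries with a high chromosome 20 transcript. There were 3 of 4 in vehicle, 1 after 1 mg/kg psilocybin, 3 after 3 mg/kg psilocybin, 2 after 1 mg/kg ketanserin, 4 after 3 mg/kg ketanserin, 2 after the 1 mg/kg combination and 0 after the 3 mg/kg combination. In vehicle, Mt-nd4 was at 422, 480.2, 553 and 648 CPM and the transcript at 55.4, 285, 683 and 886 CPM. After 1 mg/kg psilocybin Mt-nd4 was at 511, 629, 765 and 984 CPM, with the transcript at 90.7, 96.98, 100.1 and 591 CPM. The group given 3 mg/kg psilocybin had Mt-nd4 at 261, 370.5, 422 and 649 CPM and the transcript at 56.9, 686, 956 and 1171 CPM, and its 3 low values of Mt-nd4 are its 3 high values of the transcript. After 1 mg/kg ketanserin Mt-nd4 was at 692, 716, 729.6 and 886 CPM, all 4 above the vehicle libraries, with the transcript at 47.9, 89.9, 321 and 342 CPM. After 3 mg/kg ketanserin it was at 307, 326, 516 and 642 CPM, with the transcript at 409, 741, 1084 and 1158 CPM. The 1 mg/kg combination had Mt-nd4 at 310.2, 508, 630.1 and 656 CPM and the transcript at 36.5, 56.4, 625 and 933 CPM. In the 3 mg/kg combination Mt-nd4 was at 708, 718, 834 and 909.8 CPM, all above vehicle, and the transcript at 36.6, 42.9, 50.8 and 58.5 CPM was low in all 4. The part of the transcript in the group differences of Mt-nd4 was not tested apart from the sums given below. The sum is not a corrected level of Mt-nd4. It was 765 to 1542 CPM in the 15 libraries with a high transcript. In the 13 with a low transcript it was 667 to 1075 CPM.

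**Figure D3:**
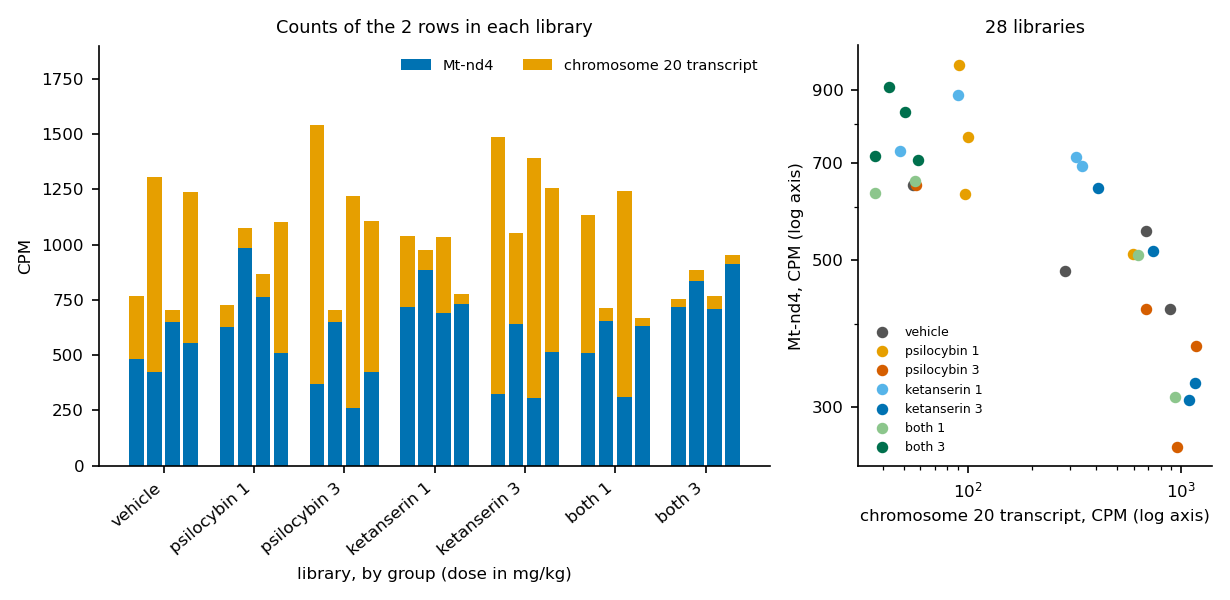
Mt-nd4 and the chromosome 20 transcript described as the same subunit: left, CPM of both rows stacked for each of the 28 libraries by group (dose in mg/kg); right, one against the other on log axes. Where the transcript is high Mt-nd4 is at 261 to 716 CPM, where it is low at 629 to 984 CPM, and the 4 libraries of the 3 mg/kg combination are all on the low side.

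Other assembled transcripts described as mitochondrial products were small beside their namesakes. One on chromosome 5 (6372707 to 6373524), described as NADH-ubiquinone oxidoreductase chain 3, had 8 to 143 counts where Mt-nd3 had 6012 to 29339. One on chromosome 8 (181059 to 182333, minus strand), described as cytochrome c oxidase subunit 1, had 4 to 33 counts against 209477 to 423498 for Mt-co1.

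Whether either drug changed the mitochondrial transcripts was tested with edgeR's quasi-likelihood test, fitted to all rows and libraries, with Benjamini-Hochberg adjustment over 17404 rows. After 1 mg/kg psilocybin most mitochondrial rows had a higher mean than vehicle, by less than the test could separate from 0. Of the 24 tested members 0 were called at an adjusted p under 0.05, and 0% of all tested rows were called by edgeR and 0.0172% by DESeq2. The members had 22 above and 2 below 0, a median log2 fold change of 0.21 against -0.01 over all tested rows. Mitochondrial rows shared extreme libraries. Replicate 2 of 1 mg/kg psilocybin was highest for 8 of the 15 mRNA and rRNA rows, and replicate 1 of vehicle lowest for 5. Here and below, numbers of members above and below 0 are therefore not numbers of separate observations. With 1 library left out at a time the counts ran from 12 above and 12 below 0 (median -0.00, without replicate 2 of 1 mg/kg psilocybin) to 23 above and 1 below 0 (median 0.25, without replicate 1 of 1 mg/kg psilocybin). Without the first of these the mean difference of the mitochondrial share was -0.0520 percentage points. DESeq2 also called 0, and 1 had an unadjusted p under 0.05 with edgeR and 1 with DESeq2 (1.66% of all rows with edgeR). The 1 with edgeR was the tRNA row at MT 9800 to 9867 (ENSRNOG00000032320), at 0.874, 2.36, 2.49 and 2.88 CPM against 0.792, 0.805, 0.960 and 1.62 CPM in vehicle (log2 fold change 1.04, SE 0.410, unadjusted p = 0.0178, adjusted p = 1.00). It had 5 to 44 counts per library. The lowest p among the 2 members below 0 was that of the tRNA row at MT 5256 to 5321 (log2 fold change -0.30, SE 0.311, unadjusted p = 0.342, adjusted p = 1.00). Mt-co1, the most abundant member, was at 19748, 20393, 23241 and 29067 CPM against 17583, 19187, 23881 and 26883 CPM in vehicle (log2 fold change 0.08, SE 0.153, and -0.06 without replicate 2 of the psilocybin group), and the groups overlapped.

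After 3 mg/kg psilocybin both rRNA rows had higher means than vehicle, through 1 high library for the shorter, and neither was called. In all, 0 of 24 members were called by edgeR or DESeq2, with 0% of all rows called by edgeR and 0% by DESeq2, and 0 had an unadjusted p under 0.05 with edgeR and 0 with DESeq2 (3% of all rows with edgeR). The members had 15 above and 9 below 0, a median log2 fold change of 0.04 against -0.01 over all tested rows. Leaving out 1 library at a time gave 7 above and 17 below 0 (median -0.10, without replicate 1 of 3 mg/kg psilocybin) to 18 above and 6 below 0 (median 0.08, without replicate 4 of vehicle). The longer rRNA was at 4534, 4561, 5451 and 9011 CPM against 3938, 4118, 5008 and 5683 CPM in vehicle (log2 fold change 0.33, SE 0.187, unadjusted p = 0.0904), and the high value of 9011 CPM was replicate 1. The shorter had a log2 fold change of 0.28 (SE 0.228). Without replicate 1 the longer had 0.04 and the shorter -0.05, below 0. The lowest p above 0 was that of the tRNA row at MT 7693 to 7756 (ENSRNOG00000029070, log2 fold change 1.02, SE 0.542, unadjusted p = 0.0692, adjusted p = 0.997), and the lowest below 0 that of Mt-nd4 (log2 fold change -0.30, SE 0.261, unadjusted p = 0.256, adjusted p = 0.997). Summed with the chromosome 20 transcript, Mt-nd4 had a log2 fold change of 0.19 (SE 0.227), above 0.

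With ketanserin alone, nearly all rows had a mean above vehicle at 1 mg/kg, and complex I mRNAs differed in sign at 3 mg/kg. At 1 mg/kg 0 of 24 members were called by edgeR or DESeq2, with 0% of all rows called by edgeR and 0.00575% by DESeq2. The members had 23 above and 1 below 0, a median log2 fold change of 0.14 against -0.02 over all tested rows. The counts without 1 library ran from 16 above and 8 below 0 (median 0.08, without replicate 1 of vehicle) to 23 above and 1 below 0 (median 0.30, without replicate 2 of vehicle). Of the 24, 1 had an unadjusted p under 0.05 with edgeR and 3 with DESeq2 (2.06% of all rows with edgeR). The 1 with edgeR was the tRNA row at MT 3835 to 3903 (ENSRNOG00000032274, log2 fold change 1.46, SE 0.716, unadjusted p = 0.0478, adjusted p = 1.00), which had 0 to 19 counts per library. The single member below 0 was the tRNA row at MT 5256 to 5321 (ENSRNOG00000029954, log2 fold change -0.11, SE 0.311, unadjusted p = 0.724, adjusted p = 1.00), at 0.14 without replicate 1 of vehicle. Mt-nd4 had a log2 fold change of 0.52 (SE 0.261) and, summed with the chromosome 20 transcript, of -0.07 (SE 0.227). At 3 mg/kg 0 of 24 members were called by either tool, with 0% of all rows called by edgeR and 0.00575% by DESeq2, and 0 had an unadjusted p under 0.05 with edgeR and 1 with DESeq2 (2% of all rows with edgeR). The members had 17 above and 7 below 0, a median log2 fold change of 0.06 against -0.02 over all tested rows. Without 1 library these were 12 above and 12 below 0 (median -0.03, without replicate 1 of vehicle) to 22 above and 2 below 0 (median 0.22, without replicate 2 of vehicle). Lowest p above and below 0 belonged to the tRNA rows at MT 7693 to 7756 (log2 fold change 1.07, SE 0.541, unadjusted p = 0.0564, adjusted p = 1.00) and MT 5256 to 5321 (log2 fold change -0.37, SE 0.311, unadjusted p = 0.246, adjusted p = 1.00). Mt-nd4l, at 804, 851, 918 and 952 CPM against 615, 701, 749.9 and 833 CPM in vehicle, had a log2 fold change of 0.28 (SE 0.151, unadjusted p = 0.0734). The groups share an estimate of spread, and without replicate 4 of the 3 mg/kg combination 2 members had an unadjusted p under 0.05 here. Mt-nd4 was at -0.23 (SE 0.261) alone and at 0.37 (SE 0.227) summed with the chromosome 20 transcript.

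After the 1 mg/kg combination members lay on both sides of vehicle. Of 24 members 0 were called by edgeR or DESeq2, with 0% of all rows called by edgeR and 0.00575% by DESeq2, and 0 had an unadjusted p under 0.05 with edgeR and 0 with DESeq2 (1.3% of all rows with edgeR). They had 11 above and 13 below 0, a median log2 fold change of -0.01 against -0.01 over all tested rows. Leaving out 1 library gave 7 above and 17 below 0 (median -0.09, without replicate 1 of vehicle) to 18 above and 6 below 0 (median 0.09, without replicate 2 of vehicle). The lowest p above 0 was that of the tRNA row at MT 7693 to 7756 (log2 fold change 0.65, SE 0.547, unadjusted p = 0.243, adjusted p = 1.00) and below 0 that of the tRNA row at MT 14062 to 14130 (ENSRNOG00000032997, log2 fold change -0.48, SE 0.365, unadjusted p = 0.198, adjusted p = 1.00). Mt-nd1 was at 4756, 5079, 6137 and 6397 CPM against 4648, 5109.7, 7715 and 9167 CPM in vehicle (log2 fold change -0.25, SE 0.206), and the groups overlapped. After the 3 mg/kg combination 0 of 24 members were called by either tool, where 0.00575% of all rows were called by edgeR and 0.00575% by DESeq2. Of the 24, 3 had an unadjusted p under 0.05 with edgeR and 5 with DESeq2 (3.13% of all rows with edgeR). The 3 with edgeR were complex I mRNAs, namely Mt-nd4 (log2 fold change 0.59, SE 0.261, unadjusted p = 0.0331, adjusted p = 0.999), Mt-nd4l (0.32, SE 0.151) and Mt-nd5 (0.33, SE 0.160). Without replicate 4 they had 0.52 (SE 0.288, unadjusted p = 0.0815), 0.07 (SE 0.116, unadjusted p = 0.575) and 0.04 (SE 0.121, unadjusted p = 0.720), and 0 members had an unadjusted p under 0.05. Mt-nd4 summed with the chromosome 20 transcript had a log2 fold change of -0.26 (SE 0.227), below 0. The lowest p below 0 was that of Mt-nd3 (log2 fold change -0.16, SE 0.310, unadjusted p = 0.605, adjusted p = 0.999), which without replicate 4 had 0.08 (SE 0.296, unadjusted p = 0.787), above 0. The members had 16 above and 8 below 0, a median log2 fold change of 0.17 against -0.02 over all tested rows, and without replicate 4 there were 22 above and 2 below 0, median 0.09. Over all libraries left out in turn they had 12 above and 12 below 0 (median -0.01, without replicate 2 of the 3 mg/kg combination) to 23 above and 1 below 0 (median 0.20, without replicate 2 of vehicle).

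**Figure D4:**
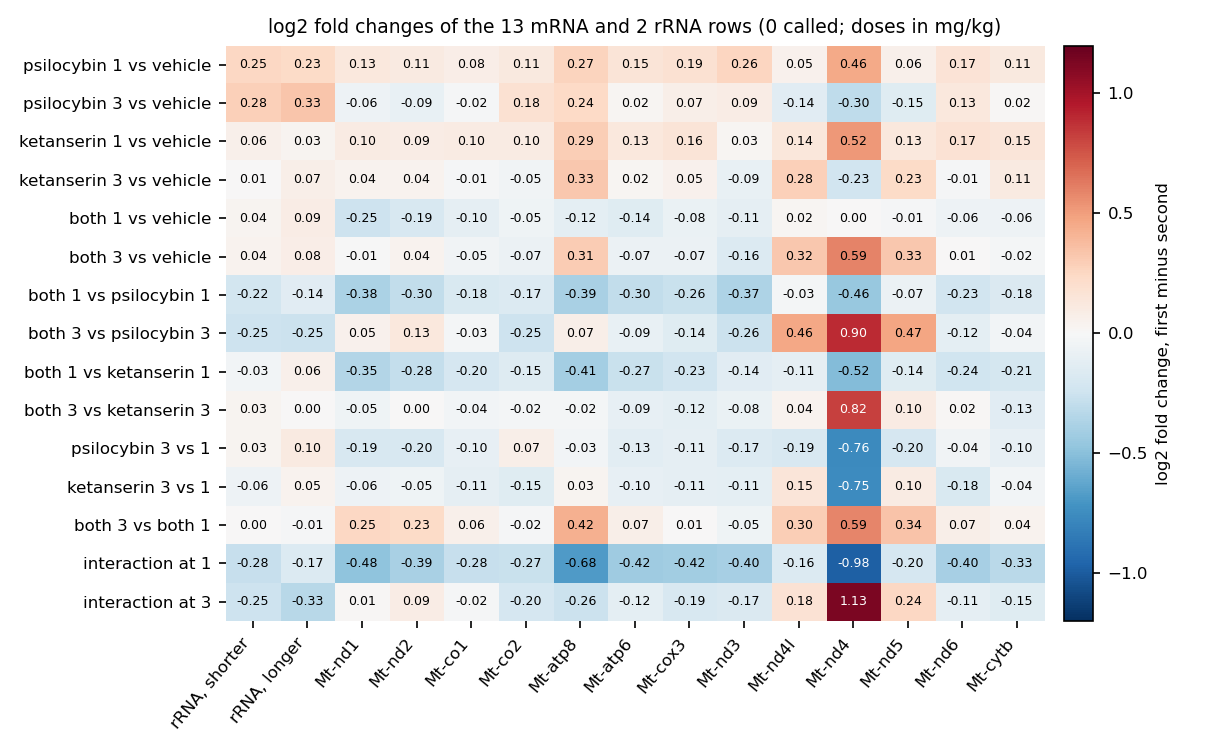
log2 fold changes of the 13 mRNA and 2 rRNA rows (columns, in map order) in 15 comparisons (rows; doses in mg/kg, and both is the combination); colour and number give the fold change of the first group over the second. No value was called by edgeR. Mt-nd4 has the largest values, from -0.98 to 1.13, and its sign turns in 13 of the 15 comparisons (in 1 of them from 0.00 to -0.09) when it is summed with the chromosome 20 transcript.

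With both drugs at 1 mg/kg, most mitochondrial rows, among them Mt-nd1 and Mt-atp8, had lower means than with either drug alone, and none was called by edgeR. Against 1 mg/kg psilocybin 0 of 24 members were called by edgeR or DESeq2, with 0% of all rows called by edgeR and 0.00575% by DESeq2, and 0 had an unadjusted p under 0.05 with edgeR and 1 with DESeq2 (4.13% of all rows with edgeR). The members had 3 above and 21 below 0, a median log2 fold change of -0.22 against 0.01 over all tested rows. When 1 library was left out they had 2 above and 22 below 0 (median -0.26, without replicate 1 of 1 mg/kg psilocybin) to 6 above and 18 below 0 (median -0.27, without replicate 3 of the 1 mg/kg combination). Mt-nd1 was at 4756, 5079, 6137 and 6397 CPM against 5293, 6181, 7511 and 10167 CPM (log2 fold change -0.38, SE 0.206), and Mt-atp8 at 149, 169.7, 178 and 189 against 187, 207, 219 and 282 CPM (-0.39, SE 0.221). Lowest p above and below 0 belonged to the tRNA rows at MT 5256 to 5321 (log2 fold change 0.59, SE 0.310, unadjusted p = 0.0673, adjusted p = 0.894) and MT 14062 to 14130 (log2 fold change -0.74, SE 0.363, unadjusted p = 0.0527, adjusted p = 0.894). Against 1 mg/kg ketanserin 0 of 24 members were called by either tool, with 0% of all rows called by edgeR and 0% by DESeq2, and 1 had an unadjusted p under 0.05 with edgeR and 2 with DESeq2 (2.92% of all rows with edgeR). Members had 3 above and 21 below 0, a median log2 fold change of -0.23 against 0.02 over all tested rows. Without 1 library they had 1 above and 23 below 0 (median -0.25, without replicate 3 of the 1 mg/kg combination) to 4 above and 20 below 0 (median -0.18, without replicate 4 of the 1 mg/kg combination). The 1 with edgeR was the tRNA row at MT 14062 to 14130 (ENSRNOG00000032997, log2 fold change -0.78, SE 0.363, unadjusted p = 0.0427, adjusted p = 1.00), with 19 to 77 counts per library, and the lowest p above 0 was that of the tRNA row at MT 5256 to 5321 (log2 fold change 0.40, SE 0.309, unadjusted p = 0.205, adjusted p = 1.00). With edgeR fitted to the libraries of this last comparison only, 9 of 23 tested members had an unadjusted p under 0.05 and 0 were called, against 1 of 24 with all groups fitted. It was picked as the highest count of the 15 comparisons fitted so. The share of all rows at that p was not computed for these fits, so the 9 cannot be set against a background. Mt-nd1 and Mt-cytb were named after their values were seen, and neither was called. After 1 mg/kg ketanserin Mt-nd1 was at 6470, 6899, 7449 and 7715 CPM, all above the combination. There Mt-cytb was at 9420, 9462, 9668 and 10080 CPM, against 7339, 8138, 8790 and 9112 CPM. The comparisons with either drug use the same combination libraries.

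With both drugs at 3 mg/kg, the complex I mRNAs Mt-nd4, Mt-nd4l and Mt-nd5 had higher means than with psilocybin alone, and none was called by edgeR. Mt-nd4 turns below when summed with the chromosome 20 transcript, and Mt-nd4l and Mt-nd5 rest in part on 1 library. In this comparison 0 of 24 were called by edgeR or DESeq2, with 0% of all rows called by edgeR and 0.00575% by DESeq2, and 4 had an unadjusted p under 0.05 with edgeR and 5 with DESeq2 (5.74% of all rows with edgeR). The members had 13 above and 11 below 0, a median log2 fold change of 0.04 against -0.01 over all tested rows. Mt-nd4 had the lowest p (log2 fold change 0.90, SE 0.261, unadjusted p = 0.00230, adjusted p = 0.693), and its groups did not overlap. Mt-nd4l was at 719, 758, 795 and 1354 CPM in the combination against 579, 652, 695 and 709.5 CPM after psilocybin alone (log2 fold change 0.46, SE 0.151, unadjusted p = 0.00545, adjusted p = 0.693), and all 4 values of the combination were higher. Mt-nd5 was at 2488, 2534, 2543 and 4713 against 2102, 2159.7, 2226 and 2371 CPM (log2 fold change 0.47, SE 0.160, unadjusted p = 0.00706, adjusted p = 0.693), again with no overlap. The highest value of Mt-nd4l and of Mt-nd5 was replicate 4 of the combination, and without it their log2 fold changes were 0.20 (SE 0.116, unadjusted p = 0.0931) and 0.19 (SE 0.121, unadjusted p = 0.130). Mt-nd4 without it had 0.82 (SE 0.288, unadjusted p = 0.00842), and summed with the chromosome 20 transcript -0.45 (SE 0.227), below 0. Without that library the members had 15 above and 9 below 0, median 0.06. Over the libraries left out in turn they had 9 above and 15 below 0 (median -0.15, without replicate 2 of the 3 mg/kg combination) to 21 above and 3 below 0 (median 0.19, without replicate 1 of 3 mg/kg psilocybin). The fourth with an unadjusted p under 0.05 was the tRNA row at MT 9800 to 9867 (log2 fold change 0.93, SE 0.417, unadjusted p = 0.0348, adjusted p = 0.693), which without replicate 4 had 1.02 (SE 0.439, unadjusted p = 0.0264). The lowest p below 0 was that of the longer rRNA row (log2 fold change -0.25, SE 0.187, unadjusted p = 0.186, adjusted p = 0.693), at 0.04 without replicate 1 of psilocybin alone and at -0.24 (SE 0.206, unadjusted p = 0.252) without replicate 4 of the combination.

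Against 3 mg/kg ketanserin alone, 0 of 24 members were called by edgeR or DESeq2, with 0% of all rows called by edgeR and 0.0287% by DESeq2, and 1 had an unadjusted p under 0.05 with edgeR and 2 with DESeq2 (3.41% of all rows with edgeR). The members had 12 above and 12 below 0, a median log2 fold change of -0.01 against 0.01 over all tested rows. The 1 with the lowest p was Mt-nd4 (log2 fold change 0.82, SE 0.261, unadjusted p = 0.00452, adjusted p = 1.00), and its groups did not overlap. Summed with the chromosome 20 transcript it had a log2 fold change of -0.63 (SE 0.227), below 0. The lowest p below 0 belonged to the tRNA row at MT 7693 to 7756 (log2 fold change -0.77, SE 0.532, unadjusted p = 0.157, adjusted p = 1.00), which without replicate 4 of the combination had -1.17 (SE 0.561, unadjusted p = 0.0490). Mt-nd4l and Mt-nd5, which differed between the combination and psilocybin alone by the values above, had log2 fold changes of 0.04 (SE 0.151) and 0.10 (SE 0.160) here. Without replicate 4 of the combination Mt-nd4, Mt-nd4l and Mt-nd5 had 0.75 (SE 0.288, unadjusted p = 0.0155), -0.22 (SE 0.116, unadjusted p = 0.0713) and -0.19 (SE 0.121, unadjusted p = 0.139), and the members had 16 above and 8 below 0, median 0.06. Over all libraries left out in turn the counts were 7 above and 17 below 0 (median -0.17, without replicate 2 of the 3 mg/kg combination) to 16 above and 8 below 0 (median 0.06, without replicate 4 of the 3 mg/kg combination).

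Between doses, Mt-nd4 was lower at 3 than at 1 mg/kg with either drug alone and higher with both, each of which turns when it is summed with the chromosome 20 transcript. For psilocybin 0 of 24 members were called by edgeR or DESeq2, with 0% of all rows called by edgeR and 0.0345% by DESeq2, and 2 had an unadjusted p under 0.05 with edgeR and 2 with DESeq2 (3.24% of all rows with edgeR). They had 8 above and 16 below 0, a median log2 fold change of -0.10 against 0.01 over all tested rows. With 1 library left out they had 3 above and 21 below 0 (median -0.22, without replicate 1 of 3 mg/kg psilocybin) to 15 above and 9 below 0 (median 0.04, without replicate 2 of 1 mg/kg psilocybin). Beside this, the oligodendrocyte markers held 0.359 ± 0.155% of nuclear counts at 3 mg/kg and 0.612 ± 0.254% at 1 mg/kg (SD, n = 4), between 0.243 and 0.585% and between 0.313 and 0.880%. Among the 30 marker rows, those with an unadjusted p under 0.05 with edgeR were all lower at 3 mg/kg and included the oligodendrocyte markers Mbp (-0.82, SE 0.370) and Mobp (-0.82, SE 0.362), the neurofilament gene Nefl (-0.47, SE 0.0923) and the choroid plexus marker Ttr (-3.83, SE 1.32). DESeq2 called 1 of the 30, Nefl (adjusted p = 0.00395, and 0.169 with edgeR). The part of these cells in the members' values was not tested. The 2 members with an unadjusted p under 0.05 with edgeR were the tRNA row at MT 9800 to 9867 (log2 fold change -1.30, SE 0.414, unadjusted p = 0.00424, adjusted p = 1.00) and Mt-nd4 (-0.76, SE 0.261, and 0.28 (SE 0.227) summed with the chromosome 20 transcript). The lowest p above 0 was that of the tRNA row at MT 15348 to 15415 (log2 fold change 0.19, SE 0.265, unadjusted p = 0.474, adjusted p = 1.00), at -0.05 without replicate 1 of 3 mg/kg psilocybin. For ketanserin 0 of 24 were called by either tool, with 0% of all rows called by edgeR and 0% by DESeq2, and 1 had an unadjusted p under 0.05 with edgeR and 1 with DESeq2 (1.64% of all rows with edgeR). The 1 with edgeR was Mt-nd4 (log2 fold change -0.75, SE 0.261, unadjusted p = 0.00833, adjusted p = 1.00, and 0.44 (SE 0.227) summed). Mt-nd4l had the lowest p above 0 (log2 fold change 0.15, SE 0.151, unadjusted p = 0.342, adjusted p = 1.00). The members had 5 above and 19 below 0, a median log2 fold change of -0.06 against 0.01 over all tested rows. Left out in turn, the libraries gave 5 above and 19 below 0 (median -0.13, without replicate 4 of 1 mg/kg ketanserin) to 11 above and 13 below 0 (median -0.02, without replicate 3 of 3 mg/kg ketanserin). For the combination 0 of 24 were called by either tool, with 0% of all rows called by edgeR and 0% by DESeq2, and 2 had an unadjusted p under 0.05 with edgeR and 3 with DESeq2 (3.3% of all rows with edgeR). The 2 with edgeR were Mt-nd4 (log2 fold change 0.59, SE 0.261, unadjusted p = 0.0336, adjusted p = 1.00, and -0.16 (SE 0.227) summed) and Mt-nd5 (0.34, SE 0.160). Without replicate 4 of the higher dose these were 0.52 (SE 0.288, unadjusted p = 0.0822) and 0.06 (SE 0.121, unadjusted p = 0.643). The lowest p below 0 was that of the tRNA row at MT 7693 to 7756 (log2 fold change -0.35, SE 0.539, unadjusted p = 0.523, adjusted p = 1.00), which without replicate 4 of the higher dose had -0.74 (SE 0.568, unadjusted p = 0.203) and, without its replicate 3, 0.01. Members had 19 above and 5 below 0, a median log2 fold change of 0.16 against 0.00 over all tested rows, and without replicate 4 there were 20 above and 4 below 0, median 0.18. Over all libraries left out in turn they had 12 above and 12 below 0 (median -0.01, without replicate 2 of the 3 mg/kg combination) to 22 above and 2 below 0 (median 0.17, without replicate 3 of the 1 mg/kg combination).

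The interaction asks whether the difference made by the combination departs from the sum of the differences made by each drug alone. At 1 mg/kg 0 of 24 members were called by edgeR or DESeq2, with 0% of all rows called by edgeR and 0% by DESeq2, and 3 had an unadjusted p under 0.05 with edgeR and 4 with DESeq2 (4.09% of all rows with edgeR). The members had 1 above and 23 below 0, a median log2 fold change of -0.40 against 0.04 over all tested rows. Nearly all estimates were thus lower with both drugs than the single drugs add up to, and the standard errors were large (for Mt-co1 -0.28, 95% interval -0.73 to 0.16). As the members share libraries, these signs are not separate observations. The count of 1 above and 23 below 0 was the same with scaling by nuclear rows alone, with median ratio factors and with DESeq2. These settings use the same libraries, and DESeq2 uses median ratio factors itself. The count was 8 above and 28 below 0 with no filter and 1 above and 22 below 0 with only the compared groups. With Mt-nd4 summed with the chromosome 20 transcript it was 2 above and 22 below 0. With 1 library left out it ran from 1 above and 23 below 0 (median -0.60, without replicate 2 of vehicle) to 3 above and 21 below 0 (median -0.20, without replicate 2 of 1 mg/kg psilocybin). Mt-nd4 had the lowest p below 0 (log2 fold change -0.98, SE 0.369, unadjusted p = 0.0140, adjusted p = 0.938, and 0.06 (SE 0.321) summed with the chromosome 20 transcript), followed by Mt-atp8 (-0.68, SE 0.313, unadjusted p = 0.0397). The member above 0 was the tRNA row at MT 5256 to 5321 (log2 fold change 0.70, SE 0.439, unadjusted p = 0.121, adjusted p = 0.938). At 3 mg/kg 0 of 24 were called by either tool, with 0% of all rows called by edgeR and 0% by DESeq2, and 2 had an unadjusted p under 0.05 with edgeR and 2 with DESeq2 (3.2% of all rows with edgeR). The 2 with edgeR were Mt-nd4 (log2 fold change 1.13, SE 0.370, unadjusted p = 0.00559, adjusted p = 0.993, and -0.82 (SE 0.321) summed) and the tRNA row at MT 7693 to 7756 (log2 fold change -1.79, SE 0.759, unadjusted p = 0.0254, adjusted p = 0.993). The members had 8 above and 16 below 0, a median log2 fold change of -0.11 against 0.02 over all tested rows. Without replicate 4 of the combination they had 9 above and 15 below 0, median -0.04, with Mt-nd4 at 1.05 (SE 0.393, unadjusted p = 0.0133) and the tRNA row at MT 7693 to 7756 at -2.19 (SE 0.764, unadjusted p = 0.00838). Mt-atp8 then also had an unadjusted p under 0.05, with -0.57 (SE 0.269, unadjusted p = 0.0435). Over all libraries left out in turn the counts were 6 above and 18 below 0 (median -0.24, without replicate 2 of the 3 mg/kg combination) to 18 above and 6 below 0 (median 0.12, without replicate 1 of 3 mg/kg psilocybin). The 95% interval of a comparison between 2 groups reached a median of 0.48 log2 units to either side of the estimate over the members. For the interactions this median was 0.67. Rows differed in the width of their intervals, so these medians are not a limit for each row.

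The nuclear genes that make, process and degrade mitochondrial RNA were listed by function, from the RNA polymerase Polrmt and its factors Tfam, Tfb2m and Tefm to the RNA-binding protein Lrpprc and the degradosome helicase Supv3l1. Of 56 listed symbols 46 were in the table and 45 rows were tested, and edgeR and DESeq2 called 0 in either direction in each of the 15 comparisons, with the percentages of all rows called as given above. At an unadjusted p under 0.05 there were 0 to 4 of the 45 rows in a comparison with edgeR and 0 to 5 with DESeq2. Of all tested rows, 1.3 to 5.74% were under that p with edgeR, and the share with DESeq2 was not computed. The highest count with edgeR, in the 1 mg/kg interaction, was 8.89% of the 45 rows against 4.09% of all rows. Medians of the list ran from -0.08 to 0.00 on the log2 scale. Against vehicle the only row with an unadjusted p under 0.05 was Lrpprc (-0.22, SE 0.0966, unadjusted p = 0.0323) after the 3 mg/kg combination, with Tefm (0.30, SE 0.207, unadjusted p = 0.163) lowest above 0. Without replicate 4 of that group 0 machinery rows had an unadjusted p under 0.05. After psilocybin the lowest p belonged to Esrra (0.25, SE 0.145, unadjusted p = 0.0986) and Cdk5rap1 (-0.26, SE 0.135, unadjusted p = 0.0691) at 1 mg/kg and to Tfb1m (0.24, SE 0.170, unadjusted p = 0.172) and Polg (-0.26, SE 0.172, unadjusted p = 0.141) at 3 mg/kg. Esrra is a nuclear receptor that drives genes of oxidative metabolism, and Polg is the mitochondrial DNA polymerase.

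Nuclear genes of the respiratory chain and ATP synthase, 39 tested records of which edgeR and DESeq2 called 0 in each of the 15 comparisons (with at most 1 at an unadjusted p under 0.05 by either), lay mostly on the same side of 0 as the mitochondrial members in some comparisons and on the other side in others. After 1 mg/kg psilocybin the nuclear genes had 33 of 39 above 0, median 0.11, and the mitochondrial members 22 of 24 above 0, median 0.21. Without replicate 2 of that group they had 13 of 39 above 0, median -0.02 and 12 of 24 above 0, median -0.00. After 3 mg/kg ketanserin the nuclear genes had 6 of 39 above 0, median -0.12, and the members 17 of 24 above 0, median 0.06, and without replicate 2 of vehicle they had 23 of 39 above 0, median 0.04 and 22 of 24 above 0, median 0.22. After the 3 mg/kg combination the nuclear genes had 3 of 39 above 0, median -0.11, and the members 16 of 24, median 0.17, and without its replicate 4 they had 27 of 39 above 0, median 0.03 and 22 of 24 above 0, median 0.09. In the 1 mg/kg interaction both were mostly below 0, with 7 of 39 above 0, median -0.19 for the nuclear genes, and 13 of 39 above 0, median -0.09 without replicate 2 of 1 mg/kg psilocybin. These comparisons share the vehicle libraries. All-row medians over the 15 comparisons were between -0.02 and 0.04.

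Between libraries the mitochondrial share moved with the shares of 2 sets of nuclear genes, those of the respiratory chain and ATP synthase and those of the cytosolic ribosome. The share of nuclear counts in the 39 respiratory chain and ATP synthase records was 0.709 to 1.28%, and libraries with more of it had a higher mitochondrial share (r = 0.87, rho = 0.82, permutation p = 1e-05 and 1e-05, adjusted p = 3.5e-05 and 7e-05 over 28 libraries and 7 relations, where 1e-05 is the smallest p the permutations can give). Without the 2 libraries farthest from the median r was 0.84, and with values centred on the group means 0.91. Cytosolic ribosomal protein genes (102 records) gave r = 0.80, rho = 0.70, permutation p = 1e-05 and 4e-05, adjusted p = 3.5e-05 and 0.00014, r = 0.75 without the 2 farthest libraries and 0.90 after centring. The neuron markers Snap25, Syt1, Rbfox3, Stmn2 and Nefl gave r = 0.22 and rho = 0.11 (permutation p = 0.270 and 0.573, adjusted p = 0.316 and 0.573). Oligodendrocyte markers gave r = 0.38 and rho = 0.36 (permutation p = 0.0458 and 0.0573, adjusted p = 0.0801 and 0.0802), and r = 0.53 without the 2 farthest libraries. Total count gave r = 0.23 and rho = 0.31 (permutation p = 0.232 and 0.110, adjusted p = 0.316 and 0.128). The share in transcripts with no gene name gave r = -0.43 and rho = -0.60 (permutation p = 0.0250 and 0.000860, adjusted p = 0.0584 and 0.00201). The number of rows with 0 counts gave r = 0.01 and rho = 0.45 (permutation p = 0.971 and 0.0169, adjusted p = 0.971 and 0.0296), and its r of 0.66 without the 2 farthest libraries, both of the 3 mg/kg combination, shows that the pooled value depends on them. These measures share the library and its RNA, and what they have in common was not tested.

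**Figure D5:**
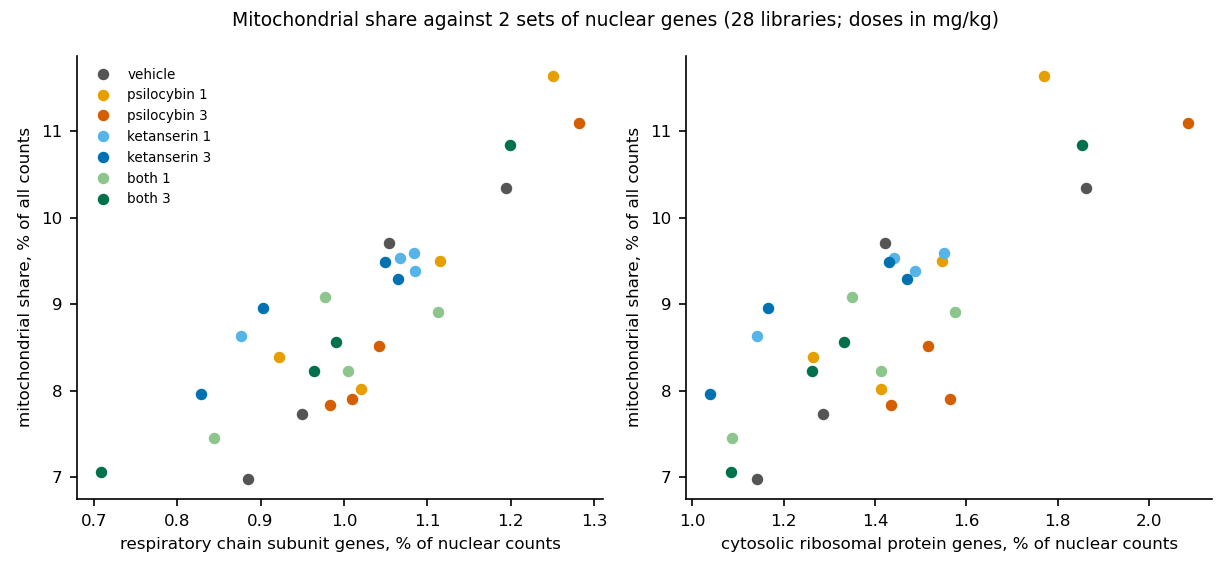
Mitochondrial share of all counts (percent) in each of the 28 libraries against the share of nuclear counts in respiratory chain and ATP synthase genes (left) and in cytosolic ribosomal protein genes (right), coloured by group with doses in mg/kg. Libraries further right on either axis have a higher mitochondrial share, with r = 0.87 on the left and 0.80 on the right.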

How the data were processed

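Bulk RNA of rat prefrontal cortex was sequenced in 28 libraries of 7 groups. Per the labels' protocols, messenger RNA was caught on poly-T beads and made into directional libraries with dUTP. The table holds whole-number read counts per gene, deposited by the authors. The submitters' processing notes name HISAT2 2.0.5, StringTie 1.3.3b, featureCounts 1.5.0-p3 and rn6, without the counting settings for strand or for reads that match several places. Rows assembled without a gene name number 3842. A deposited FPKM table was not used.

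Counts were fitted in edgeR 4.0.16 (R 4.3.3, limma 3.58.1) with its robust quasi-likelihood test, TMM factors and the filterByExpr low-count filter, with 1 coefficient per group and 21 residual degrees of freedom. Benjamini-Hochberg adjustment ran over 17404 rows, with calls at an adjusted p under 0.05. Every p called unadjusted or adjusted beside a log2 fold change is from edgeR unless DESeq2 1.42.0 is named. The fit was tested on simulated data. CPM were scaled by TMM factors. Shares were compared by exact permutation tests (scipy 1.17.1, Python 3.11.15, pandas 2.3.3), two-sided, and correlations by 100000 permutations. Library totals of 12783067 to 18538414 counts leave mRNA rows limited by the spread between libraries and the sparsest tRNA rows also by counting.

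The labels call the libraries of a group biological replicates and say no more of their origin. Of 378 library pairs 0 held identical values. All mRNA and rRNA rows are named with a level, tRNA rows where they passed the filter, and in each comparison the member with the lowest unadjusted p in each direction. Other members were named after their values were seen. The members and lists were chosen with earlier results of these data known. Alternatives were median ratio factors, scaling by nuclear rows, no filter, only the compared groups, DESeq2, other denominators for the shares, and each library left out in turn. After the data were seen, Mt-nd4 summed with the chromosome 20 transcript, and the mitochondrial share with nuclear copies included, were added.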

Additional observations from a re-analysis of the deposited data

Results flagged for a closer look

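Of 133 sets of 4 libraries (a member or share in 1 group), 11 held a library far from the other 3 beyond Dixon's 95% critical value for the gap to its nearest neighbour. Chance alone gives about 1 in 20.

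Replicate 4 of the 3 mg/kg combination, the library with most rows at 0 counts, had Mt-nd4l at 1354 CPM (719 to 795 in the other 3), Mt-nd5 at 4713 CPM (2488 to 2543) and 0.0970% of mitochondrial counts in tRNA rows (0.0762 to 0.0787%). Replicate 2 of that group had the shorter rRNA row (ENSRNOG00000030478) at 6120.4 CPM (3558 to 3740) and Mt-nd6 at 1939 CPM (1149 to 1245).

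Replicate 1 of 3 mg/kg psilocybin had Mt-co2 at 12180 CPM (6979 to 7800) and Mt-atp6 at 15782 CPM (9206 to 9905). In replicate 3 of 3 mg/kg ketanserin the values were low instead, with Mt-nd1 at 5878 CPM (7127 to 7264 in the other 3) and Mt-co1 at 19730 CPM (22227 to 22587). Mt-nd5 was at 3168 CPM in replicate 4 of 1 mg/kg ketanserin (2469 to 2574). The rRNA share was 13.1% of mitochondrial counts in replicate 1 of 1 mg/kg psilocybin (10.1 to 10.4%).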

How the results depend on the processing

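Of 1193 values recomputed for 99 results, 1171 kept their side of the threshold and their direction, where a change of sign by less than 1 SE between uncalled values counted as kept (57 such changes). In the main fits the adjusted p was at least 0.693 for members and 0.508 for shares, so staying uncalled shows little. Counts of members above and below 0, which moved with 1 library left out, are not among these values. The count of called members was 0 in all 236 recomputed counts. The fit shares an estimate of spread over groups, so replicate 4 of the 3 mg/kg combination also bears on other groups. Without it, members with an unadjusted p under 0.05 rose from 0 to 2 for 3 mg/kg ketanserin against vehicle. The same rise held for the 1 mg/kg combination against psilocybin. They rose from 1 to 2 for 1 mg/kg ketanserin against vehicle or the 1 mg/kg combination. The 1 mg/kg interaction went from 3 to 4. Other comparisons of these groups did not change. The lowest adjusted p of a member was 0.222, without replicate 2 of the 3 mg/kg combination, against psilocybin alone (Mt-nd4, Mt-nd4l, Mt-nd5), and 0.543 with DESeq2. Summed with the chromosome 20 transcript, Mt-nd4 changed sign against vehicle to -0.090 (1 mg/kg psilocybin), 0.19 (3 mg/kg psilocybin), -0.069 (1 mg/kg ketanserin), 0.37 (3 mg/kg ketanserin) and -0.26 (3 mg/kg combination). It changed to -0.45 and -0.63 for that combination against psilocybin and ketanserin alone, to 0.28, 0.44 and -0.16 for the higher dose of psilocybin, ketanserin and both, and to 0.065 and -0.82 in the interactions at 1 and 3 mg/kg. The longer rRNA row, 3 mg/kg combination against psilocybin, ran from -0.38 to 0.038 with 1 library left out, 0.038 without replicate 1 of psilocybin. Taken relative to the other complex I mRNAs, Nd6 differed by -0.525 percentage points between the 3 mg/kg combination and vehicle and by -0.0845 from ketanserin alone. Taken relative to all counts, the tRNA share of the 1 mg/kg combination differed by -0.000414 percentage points from psilocybin and -0.00041 from ketanserin. Correlations with the mitochondrial share passed the threshold without the 2 farthest libraries or after centring on group means for oligodendrocyte markers (r = 0.53 and 0.44) and unnamed transcripts (-0.51 and -0.43), and without the 2 farthest for rows at 0 (0.66). Except where its own construction shows it, the cause was not tested. No paired analysis was possible because the labels give no replicate numbers shared between groups. Counts of 0 to 44 per library limit 4 of the 9 tested tRNA rows.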

Other observations

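Split by complex, 49.7 ± 1.59% of the mitochondrial mRNA counts (SD, 28 libraries) belonged to complex IV, 24.9 ± 1.85% to complex I, 14.1 ± 0.683% to ATP synthase and 11.3 ± 0.425% to complex III. In vehicle the complex I part was 24.8 ± 0.482% and the complex IV part 49.98 ± 0.902% (SD, n = 4).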
